A study of Mus musculus with 30 samples.

Results

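The PML nuclear body genes *Pml*, *Daxx*, *Morc3*, *Sp100*, *Sp110* and *Sp140* were followed as a list of 6 genes chosen by name, out of 49315 genes counted and 21138 tested. The list was chosen with earlier results of these data known. All 6 passed the minimum of 10 reads combined over the 24 bulk RNA-seq libraries. B16F10 cells, a melanoma line, and 6694c2 cells, a pancreatic ductal adenocarcinoma (PDAC) line, were treated in culture for 24 h with vehicle, with 100 ng/mL of IFNγ, with 1000 U/mL of IFNβ or with 225 μg/mL of STING agonist. Each of the 8 groups held 3 libraries. Both lines are labelled C57BL/6. The 6694c2 line came from genetically engineered mice with a floxed p53 allele and a YFP reporter, recombined by Pdx-cre in the pancreatic lineage, and the vehicle libraries of this line carry these alleles too. The bulk libraries are labelled as tumor tissue although the cells were grown in culture. The study's list of reagents names the STING agonist BMS-986301. The labels do not say that the 3 libraries of a group came from separate cultures, so p-values measure the spread between these libraries, which may be technical.

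PML bodies are spherical assemblies in the nucleus, built on a scaffold of PML protein that is held together by SUMO, a small protein attached to other proteins, and by motifs that bind SUMO. SP100 and DAXX are resident proteins of these bodies, and DAXX is a histone chaperone that deposits histone H3.3 together with ATRX. The bodies hold back the genomes of incoming DNA viruses, and several of their components have long been known as interferon-stimulated genes.

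The libraries held 15543131 to 26399495 reads on genes in B16F10 and 17450954 to 32266795 in 6694c2 cells. Levels are given as CPM, read counts scaled to library size after TMM scaling over all libraries, and as RPKM, CPM per kilobase of counted exon, where genes are compared with each other. A gene was called at an adjusted p-value under 0.05 (edgeR's quasi-likelihood test, Benjamini-Hochberg over all genes tested). The line labels were matched by marker genes, since 7 melanocyte genes summed to 15100 to 18500 CPM in the B16F10 groups and 20.7 to 85.8 in the 6694c2 groups, and 6 ductal epithelial genes to 17.1 to 116 and to 13100 to 14600 CPM. Every library also held a small share of transcripts typical of the other line. As the median over 153 genes specific to 6694c2 cells, it averaged 0.189% in the B16F10 vehicle group and 0.873% in the B16F10 STING agonist group. Over 101 genes specific to B16F10 cells, it averaged 0.249% to 0.622% in the 6694c2 groups. These genes were chosen at 50 CPM or more in every group of one line and under 2% of that in the other, which set an upper limit to the share. Transcripts carried over from the other line and low expression in the line itself cannot be told apart here.

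*Pml*, *Daxx* and the Sp100 family genes rose with each interferon in each line, and *Morc3* was not called with either. Of the 6 members, 5 were called higher with IFNβ in B16F10 cells, where 12.7% of all genes tested were, and 5 in 6694c2 cells, where 10.4% were. With IFNγ the counts were 5 in B16F10 cells (12% of all genes) and 5 in 6694c2 cells (7.89%). The median log2 fold change of the 6 genes was 1.79 with IFNβ and 2.78 with IFNγ in B16F10 cells, and 2.19 and 1.18 in 6694c2 cells, while the medians over all genes tested lay between 0 and 0.019. No member was called lower in any of these comparisons. With STING agonist, 2 of 6 were called higher in B16F10 cells (1.93% of all genes) and 0 of 6 in either direction in 6694c2 cells (0.36% of all genes in either direction). In the latter comparison DESeq2 also called 0, and 1 of 6 had an unadjusted p under 0.05.

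**Figure D1:**
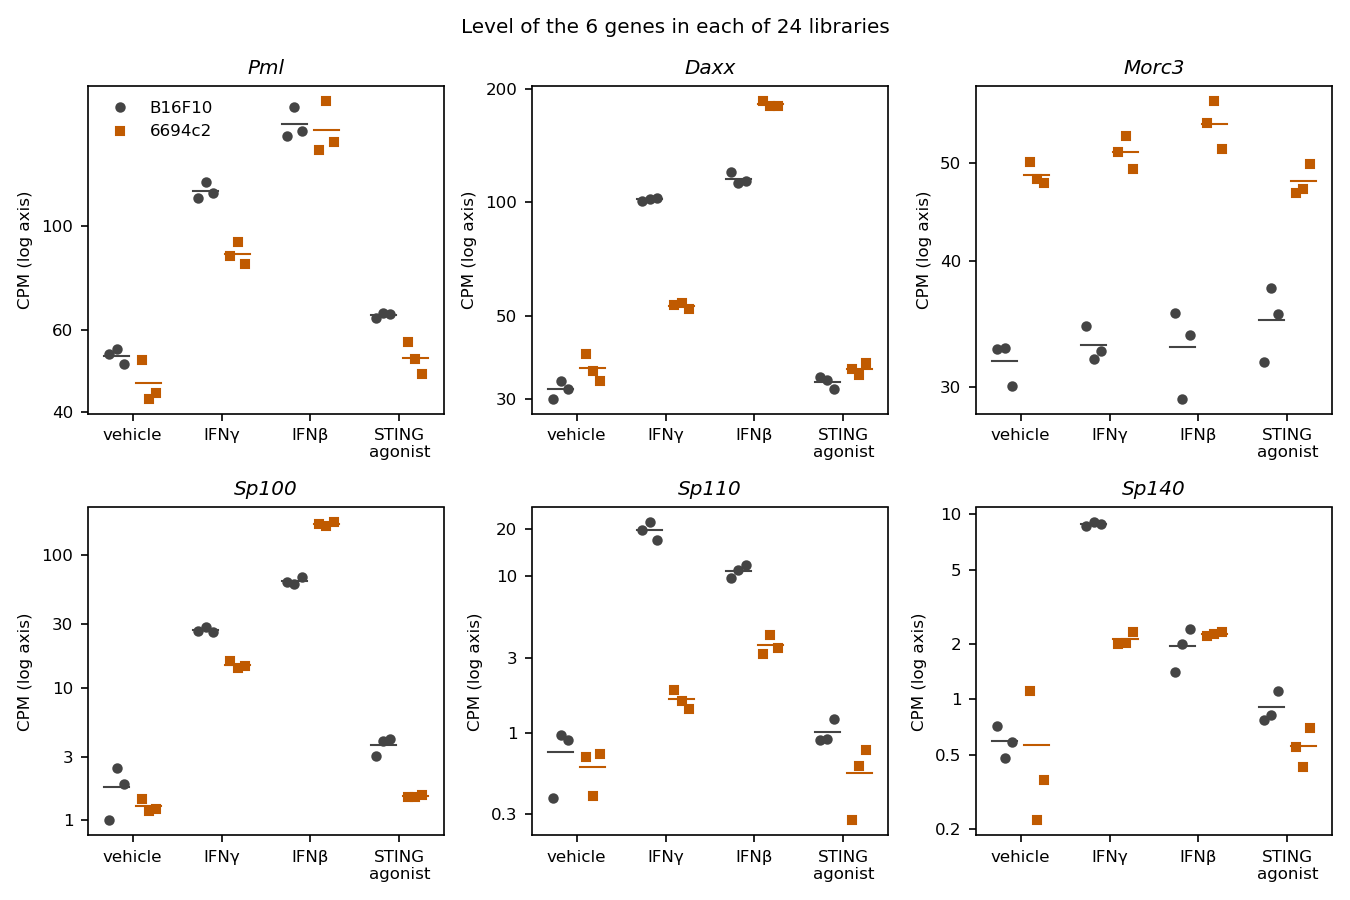
Level of each gene in each library, in CPM on a log axis, by treatment. Circles are B16F10 libraries, squares are 6694c2 libraries, and short lines are means of 3 libraries. *Morc3* spans 29.2 to 57.5 CPM and separates by line, while the other 5 genes stand higher with IFNγ and IFNβ than with vehicle in both lines.

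With vehicle, *Daxx* was the highest member in both lines, at 10.4 ± 0.557 RPKM in B16F10 and 11.8 ± 1.02 RPKM in 6694c2 cells (SD, n = 3 each). *Pml* came next in B16F10 cells, at 9.48 ± 0.357 RPKM, ahead of *Morc3* at 5.98 ± 0.291 RPKM. In 6694c2 cells *Morc3* had the higher mean, 9.13 ± 0.232 against 8.27 ± 0.861 RPKM for *Pml*, within the spread of the libraries. The 3 Sp100 family genes were near the bottom, with *Sp100* at 0.237 ± 0.0986, *Sp140* at 0.179 ± 0.0356 and *Sp110* at 0.110 ± 0.0469 RPKM in B16F10 cells. There the *Sp100* libraries overlapped those of *Sp140* and of *Sp110*, while the *Sp140* libraries lay just above those of *Sp110*. IFNβ brought *Sp100* to 8.44 ± 0.518 RPKM in B16F10 cells, above *Morc3*, and to 22.5 ± 0.772 RPKM in 6694c2 cells, next to *Pml* at 28.8 ± 3.85 RPKM. *Daxx* stayed the highest member with IFNβ, at 37.8 ± 1.29 RPKM in B16F10 and 59.5 ± 1.09 RPKM in 6694c2 cells, while *Sp110* and *Sp140* stayed under 3 RPKM in every group. In bulk samples, a change in the number of expressing cells and a change in RNA per cell cannot be told apart.

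The promoters of the 6 members were also described. Of these genes, 5 were called higher with each interferon in each line, and *Morc3* was not called. RefSeq (GRCm38.p6) gave start sites for 6 of 6 members in 10 windows of 300 bases, each from 250 bases before the start site to 50 bases after it. Windows were searched on both strands for the interferon-stimulated response element core (GAAANNGAAA, in 3.44% of 32851 windows of all genes), the shorter IRF half-site (AANNGAAA, in 23.9%, and contained in every match of the core) and the gamma-activated site (TTCNNNGAA, in 8.3%). None of the members held the response element core or the gamma-activated site. The half-site was found in 4 windows of 3 members, and 26.7% of all 27025 genes had it in any window. Both *Sp100* windows hold the same pair of sites. The other windows, including those of *Daxx*, *Sp140* and *Morc3*, held no match. Of these genes, *Daxx* and *Sp140* were called higher with both interferons in both lines. Those of *Pml*, *Sp100*, *Sp110* and *Morc3* are printed from 5′ to 3′ on the strand of the gene, with the half-sites (read here as TTTCNNTT, the other strand) in capitals. *Pml* lies on the minus strand (chr9:58249737-58250036), *Sp100* on the plus strand (chr1:85649738-85650037), *Sp110* on the minus strand (chr1:85598761-85599060) and *Morc3* on the plus strand (chr16:93831871-93832170).
Pml: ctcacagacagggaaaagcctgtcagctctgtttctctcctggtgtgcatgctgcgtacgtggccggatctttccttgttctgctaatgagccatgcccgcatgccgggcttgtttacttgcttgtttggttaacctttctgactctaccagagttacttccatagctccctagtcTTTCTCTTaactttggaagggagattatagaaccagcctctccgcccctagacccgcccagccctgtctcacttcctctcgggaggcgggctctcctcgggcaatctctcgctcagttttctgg
Sp100: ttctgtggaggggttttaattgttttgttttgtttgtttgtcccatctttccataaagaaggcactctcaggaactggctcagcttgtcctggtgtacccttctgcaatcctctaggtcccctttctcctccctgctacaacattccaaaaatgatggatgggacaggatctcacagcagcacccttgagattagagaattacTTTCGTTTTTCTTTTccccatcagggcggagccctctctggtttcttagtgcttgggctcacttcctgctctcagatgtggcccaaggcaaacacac
Sp110: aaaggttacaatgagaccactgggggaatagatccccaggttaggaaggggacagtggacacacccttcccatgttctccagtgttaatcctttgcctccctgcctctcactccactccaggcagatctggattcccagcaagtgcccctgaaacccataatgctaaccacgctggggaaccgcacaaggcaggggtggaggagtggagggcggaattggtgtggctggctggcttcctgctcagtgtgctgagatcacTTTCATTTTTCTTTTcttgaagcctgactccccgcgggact
Morc3: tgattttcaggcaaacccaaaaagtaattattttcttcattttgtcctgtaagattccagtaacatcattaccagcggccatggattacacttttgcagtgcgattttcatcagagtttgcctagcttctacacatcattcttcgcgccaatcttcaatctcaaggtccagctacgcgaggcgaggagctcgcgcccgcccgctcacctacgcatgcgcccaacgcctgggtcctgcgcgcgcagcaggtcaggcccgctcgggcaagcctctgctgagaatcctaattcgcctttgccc
In *Sp100* a pair of overlapping half-sites covered positions -47 to -33, counted from 0 at the start site, and in *Sp110* a pair lay at positions 9 to 23, inside the transcript. The longest run that promoters of different members had in common was the 11 bases TTTTTCTTTTC, which overlaps the second half-site of each of these pairs. *Pml* held its half-site at positions -74 to -67. A match of letters is a description and not a binding site, and 23.9% of all windows hold the half-site.

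*Pml* encodes the scaffold of the bodies (ENSMUSG00000036986, chr9:58218076-58249786 on GRCm38, minus strand). In B16F10 cells its level was 53.1, 54.6 and 50.7 CPM with vehicle, 115, 124 and 118 with IFNγ, 156, 179 and 160 with IFNβ and 63.5, 65.3 and 64.9 with STING agonist. The 6694c2 libraries stood at 51.6, 42.7 and 44.0 CPM with vehicle, 86.1, 92.2 and 82.9 with IFNγ, 145, 185 and 151 with IFNβ and 56.4, 51.9 and 48.3 with STING agonist. In both lines IFNβ libraries were the highest and IFNγ libraries intermediate, without overlap between them. The log2 fold change against vehicle was 1.65 with IFNβ in B16F10 cells (standard error 0.062, adjusted p = 3.74e-89, edgeR) and 1.83 in 6694c2 cells (standard error 0.0854, adjusted p = 1.33e-21, edgeR). With IFNγ it was 1.17 (adjusted p = 3.28e-55, edgeR) and 0.93 (adjusted p = 9.2e-12, edgeR). The B16F10 STING agonist libraries all lay above the vehicle libraries, with a log2 fold change of 0.28 (standard error 0.064, adjusted p = 0.00104, edgeR). In 6694c2 cells the STING agonist and vehicle libraries overlapped, with a log2 fold change of 0.18 (95% interval 0.01 to 0.36, adjusted p = 0.609, edgeR).

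*Daxx* (ENSMUSG00000002307, chr17:33909414-33915589, plus strand) encodes the histone chaperone recruited to the bodies. In B16F10 cells it stood at 30.1, 33.5 and 31.9 CPM with vehicle, 101, 102 and 103 with IFNγ and 120.0, 113 and 114 with IFNβ. The 6694c2 libraries held 39.6, 35.6 and 33.5 CPM with vehicle, 53.4, 54.1 and 52.0 with IFNγ and 186, 180.2 and 180.0 with IFNβ. IFNγ libraries were thus close to the IFNβ libraries in B16F10 cells and nearer to the vehicle libraries in 6694c2 cells. The log2 fold change with IFNβ was 1.87 in B16F10 (adjusted p = 3.77e-94, edgeR) and 2.36 in 6694c2 cells (adjusted p = 5.31e-28, edgeR). With IFNγ it was 1.67 (adjusted p = 7.93e-82, edgeR) and 0.57 (adjusted p = 1.02e-07, edgeR). With STING agonist *Daxx* lay between 31.8 and 34.3 CPM in B16F10 and between 34.8 and 37.4 CPM in 6694c2 cells, overlapping vehicle in both, and was not called (log2 fold change 0.06, 95% interval -0.09 to 0.2, and 0.00, 95% interval -0.15 to 0.15).

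*Sp100* encodes a resident body protein that restricts viral genomes (ENSMUSG00000026222, chr1:85649988-85709998, plus strand). It had the steepest IFNβ response of the 6 genes in both lines. In B16F10 cells its level was 1.005, 2.49 and 1.88 CPM with vehicle, 26.6, 28.5 and 26.4 with IFNγ and 62.9, 60.3 and 68.0 with IFNβ. In 6694c2 cells it was 1.46, 1.17 and 1.22 CPM with vehicle, 16, 14.1 and 14.5 with IFNγ and 171, 164 and 176 with IFNβ. In these libraries vehicle, IFNγ and IFNβ followed each other without overlap. The log2 fold change with IFNβ was 5.13 in B16F10 (34.9-fold, standard error 0.119, adjusted p = 8.45e-152, edgeR) and 7.08 in 6694c2 cells (135-fold, standard error 0.117, adjusted p = 2.89e-38, edgeR). With IFNγ it was 3.88 (adjusted p = 9.77e-107, edgeR) and 3.54 (adjusted p = 2.09e-24, edgeR).

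With STING agonist, *Sp100* was at 3.05, 3.99 and 4.09 CPM in B16F10 cells and at 1.497, 1.51 and 1.55 CPM in 6694c2 cells. In both lines these libraries lay above vehicle, but *Sp100* was called only in B16F10 cells (log2 fold change 1.02, standard error 0.173, adjusted p = 1.28e-06, edgeR) and not in 6694c2 cells (0.25, 95% interval -0.15 to 0.65, adjusted p = 0.809, edgeR). The difference between the lines was itself not called (log2 -0.79, adjusted p = 0.218, edgeR). The B16F10 STING agonist libraries held transcripts typical of 6694c2 cells. If carried over, these would bring 0.0112 CPM of *Sp100* from the lowest 6694c2 group or 1.49 CPM from the IFNβ group. Measured were 3.71 ± 0.572 CPM, and 1.79 ± 0.745 CPM with vehicle (SD, n = 3 each). The part of such transcripts in the result was not tested. In the vehicle libraries of both lines *Sp100* rested on 20 to 62 reads.

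*Sp110* (ENSMUSG00000070034, chr1:85576899-85598817, minus strand) encodes a nuclear body protein of the same family, which carries a SAND DNA-binding domain, and is expressed mainly in leukocytes. In B16F10 cells its level was 0.383, 0.963 and 0.8996 CPM with vehicle, 19.9, 22.2 and 17.2 with IFNγ and 9.85, 10.9 and 11.9 with IFNβ. In 6694c2 cells it was 0.7003, 0.391 and 0.732 CPM with vehicle, 1.89, 1.59 and 1.43 with IFNγ and 3.20, 4.21 and 3.46 with IFNβ. IFNγ gave the highest libraries in B16F10 cells and IFNβ the highest in 6694c2 cells, without overlap in either line. The log2 fold change with IFNγ was 4.67 in B16F10 (standard error 0.174, adjusted p = 4.14e-90, edgeR) and 1.43 in 6694c2 cells (standard error 0.345, adjusted p = 0.0024, edgeR). With IFNβ it was 3.82 (adjusted p = 4.08e-64, edgeR) and 2.6 (adjusted p = 1.01e-08, edgeR). With STING agonist *Sp110* was at 0.896 to 1.22 CPM in B16F10 and 0.276 to 0.774 CPM in 6694c2 cells, overlapping vehicle, and was not called (log2 fold change 0.38, 95% interval -0.19 to 0.95, and -0.10, 95% interval -0.89 to 0.69).

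*Sp140* (ENSMUSG00000070031, chr1:85600378-85645037, plus strand) encodes a chromatin reader of this family and is also known mainly from leukocytes. In B16F10 cells it stood at 0.718, 0.481 and 0.587 CPM with vehicle, 8.57, 9.01 and 8.85 with IFNγ and 1.41, 1.99 and 2.38 with IFNβ. In 6694c2 cells it stood at 1.11, 0.223 and 0.366 CPM with vehicle, 2.00, 2.02 and 2.31 with IFNγ and 2.20, 2.26 and 2.32 with IFNβ. The B16F10 IFNγ libraries stood apart from all others, and in 6694c2 cells the IFNγ and IFNβ libraries overlapped. The log2 fold change with IFNγ was 3.89 in B16F10 (adjusted p = 5.24e-46, edgeR) and 1.92 in 6694c2 cells (adjusted p = 7.89e-05, edgeR). With IFNβ it was 1.71 (adjusted p = 2.81e-08, edgeR) and 2.03 (adjusted p = 1.86e-05, edgeR). The 6694c2 vehicle value rested on 19, 4 and 6 reads, and without replicate 1 the log2 fold changes in that line became 2.86 with IFNγ and 2.96 with IFNβ.

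With STING agonist, *Sp140* was at 0.777, 0.823 and 1.11 CPM in B16F10 cells, just above its vehicle libraries, and at 0.551, 0.432 and 0.704 CPM in 6694c2 cells. It was not called in B16F10 (log2 fold change 0.61, 95% interval -0.05 to 1.26) or 6694c2 cells (0.00, 95% interval -0.83 to 0.84). At 4 to 24 reads per vehicle library, and with the spread between these libraries, smaller changes of *Sp110* and *Sp140* were not detectable. Since both genes are leukocyte genes, 15 leukocyte markers were summed. They came to 29.4 CPM with vehicle, 40.1 with IFNγ, 34.5 with IFNβ and 33.5 with STING agonist in B16F10 cells, and to 37.8, 26.2, 35.5 and 32.7 CPM in 6694c2 cells. Between 1 and 3 of the 15 were at 0 in each group, and *Ptprc*, the pan-leukocyte marker CD45, was at 1.14 CPM with vehicle and 1.36 CPM with IFNγ in B16F10 cells, where the T cell marker *Cd3e* was at 0 in both. In that comparison the summed markers did not overlap, at 19.5 to 35.3 CPM in the vehicle libraries and 36.7 to 46.9 in the IFNγ libraries. The B cell markers stood higher with IFNγ, with *Ighm* at 7.42 and 13 CPM, *Igkc* at 2.55 and 6.1, *Cd79a* at 2.01 and 3.63 and *Ms4a1* at 3.88 and 4.68 CPM with vehicle and IFNγ. *Lyz2* (5.48 and 3.94 CPM) and *Lat* (2.14 and 1.42 CPM) stood lower with IFNγ. In 6694c2 cells these B cell markers went the other way. There *Ighm* was at 11.9 and 8.2 CPM, *Igkc* at 5.03 and 3.27, *Cd79a* at 2.91 and 1.89 and *Ms4a1* at 5.78 and 3.96 CPM with vehicle and IFNγ. The part of such transcripts in the levels of *Sp110* and *Sp140* was not tested.

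*Morc3* (ENSMUSG00000039456, chr16:93832121-93876072, plus strand) encodes an ATPase that enters PML bodies through SUMO and takes part in silencing viral and repeat DNA. In B16F10 cells it lay at 32.7, 32.8 and 30.1 CPM with vehicle, 34.5, 32.04 and 32.6 with IFNγ, 35.5, 29.2 and 33.8 with IFNβ and 31.8, 37.6 and 35.5 with STING agonist. In 6694c2 cells it lay at 50.1, 48.2 and 47.7 CPM with vehicle, 51.2, 53.2 and 49.3 with IFNγ, 54.7, 57.5 and 51.6 with IFNβ and 46.7, 47.1 and 49.9 with STING agonist. All B16F10 groups overlapped, and every 6694c2 library was above every B16F10 library. In B16F10 cells the log2 fold change was 0.05 with IFNβ (95% interval -0.1 to 0.21) and 0.05 with IFNγ (95% interval -0.1 to 0.21). In 6694c2 cells the IFNβ libraries lay just above the vehicle libraries, with a log2 fold change of 0.2 (95% interval 0.05 to 0.35) that was not called (adjusted p = 0.0542, edgeR). Of 15 alternatives, 4 called it, with adjusted p-values between 0.0342 and 0.238 (edgeR and DESeq2).

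**Figure D2:**
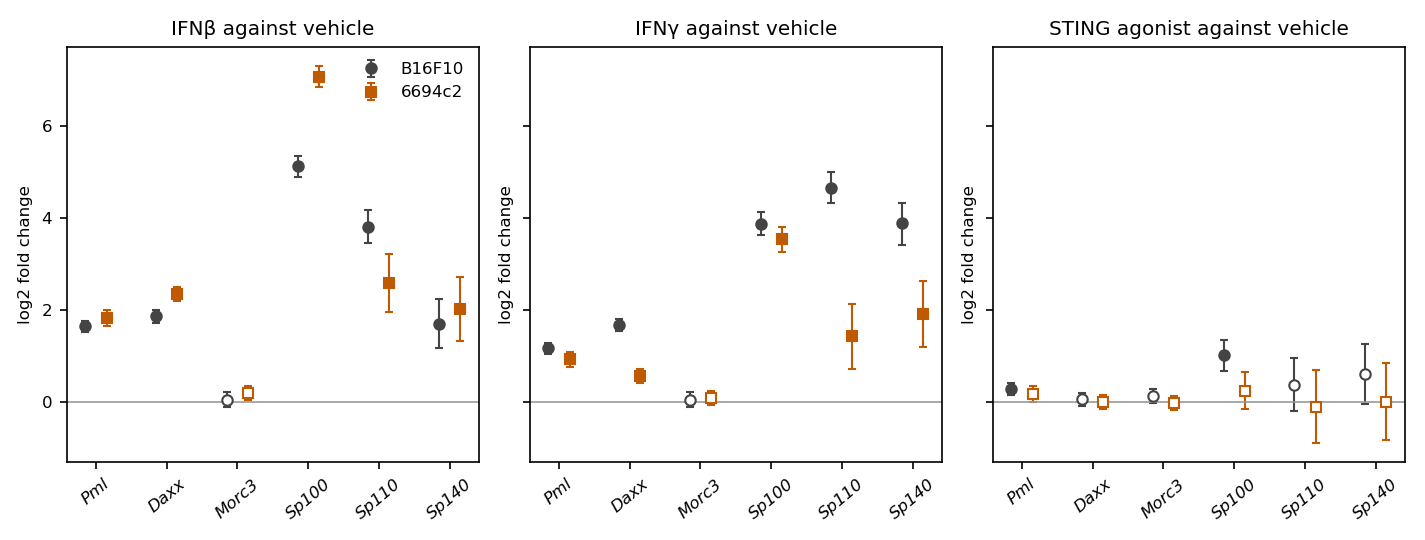
Log2 fold change of each gene against vehicle (y axis) for IFNβ, IFNγ and STING agonist. Points are edgeR estimates from 3 libraries a group, bars are 95% intervals, and filled points were called at an adjusted p under 0.05. *Sp100* reaches 7.08 with IFNβ in 6694c2 cells and *Sp110* 4.67 with IFNγ in B16F10 cells, while *Morc3* stays between -0.02 and 0.2 in all 6 comparisons.

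Set directly against each other, the interferons divided the Sp100 family in B16F10 cells. There *Sp100* (log2 1.24, standard error 0.0821, adjusted p = 4.24e-39, edgeR), *Pml* (0.48, adjusted p = 1.47e-13, edgeR) and *Daxx* (0.19, adjusted p = 0.0171, edgeR) were higher with IFNβ than with IFNγ. *Sp110* was 1.8-fold lower with IFNβ (log2 -0.85, standard error 0.116, adjusted p = 6.01e-11, edgeR) and *Sp140* 4.52-fold lower (log2 -2.17, standard error 0.19, adjusted p = 1.86e-24, edgeR). Of the 6 members, 5 were called, against 14.5% of all genes in either direction. The *Daxx* call was lost without IFNγ replicate 1 (adjusted p = 0.0999, edgeR) or IFNβ replicate 1 (adjusted p = 0.103, edgeR), and over 15 alternatives its adjusted p ranged from 0.000682 to 0.103.

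In 6694c2 cells no member was lower with IFNβ than with IFNγ. *Sp100* was 11.6-fold higher with IFNβ (log2 3.54, standard error 0.082, adjusted p = 2.34e-32, edgeR), *Daxx* 3.47-fold (log2 1.8, adjusted p = 6.91e-24, edgeR), *Sp110* 2.25-fold (log2 1.17, adjusted p = 0.000856, edgeR) and *Pml* 1.87-fold (log2 0.9, adjusted p = 6.51e-12, edgeR). That made 4 called of 6, against 13.9% of all genes. *Sp140* (log2 0.11, 95% interval -0.46 to 0.67) and *Morc3* (log2 0.11, 95% interval -0.04 to 0.26) were not called. As doses of the agents are in different units, these comparisons are between these treatments and not between equal doses.

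**Figure D3:**
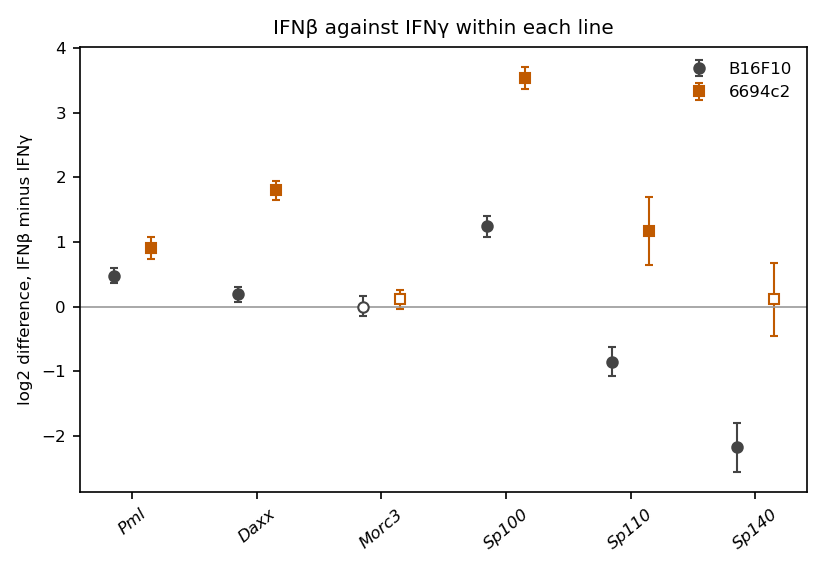
Log2 difference between IFNβ and IFNγ (y axis, IFNβ minus IFNγ) for each gene within each line, as edgeR estimates from 3 libraries a group with 95% intervals. Filled points were called. *Sp110* and *Sp140* lie below 0 in B16F10 cells (-0.85 and -2.17) and at 1.17 and 0.11 in 6694c2 cells.

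Whether this order differed between the lines was tested in a comparison added after the values were seen, the difference between IFNβ and IFNγ in 6694c2 cells less the same difference in B16F10 cells. Of the 6 members, 5 were called, all towards IFNβ in 6694c2 cells, against 8.45% of all genes in either direction. The log2 difference was 2.29 for *Sp100* (standard error 0.125, adjusted p = 7.81e-18, edgeR), 2.27 for *Sp140* (standard error 0.319, adjusted p = 1.35e-06, edgeR), 2.01 for *Sp110* (standard error 0.256, adjusted p = 1.66e-07, edgeR), 1.60 for *Daxx* (standard error 0.0864, adjusted p = 5.55e-18, edgeR) and 0.41 for *Pml* (standard error 0.107, adjusted p = 0.00956, edgeR). *Morc3* was not called (0.10, adjusted p = 0.677, edgeR). The *Pml* call was lost without 6694c2 IFNβ replicate 2 (0.30, adjusted p = 0.0623, edgeR) and without TMM scaling (adjusted p = 0.0581, edgeR), over a range of adjusted p from 0.00101 to 0.0623 in 19 alternatives. *Sp110* was thus higher with IFNγ in one line and with IFNβ in the other.

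Between the lines, *Morc3* differed with vehicle and with both interferons. It was higher in 6694c2 than in B16F10 cells by log2 0.61 with vehicle (standard error 0.0761, adjusted p = 3.23e-09, edgeR), 0.73 with IFNβ (adjusted p = 1.43e-11, edgeR) and 0.63 with IFNγ (adjusted p = 1.1e-09, edgeR). With vehicle, *Daxx* was also called higher in 6694c2 cells (0.19, adjusted p = 0.0174, edgeR) and *Pml* lower (-0.2, adjusted p = 0.0391, edgeR), making 3 of 6 against 58.0% of all genes. *Sp100* was not called with vehicle (-0.51, adjusted p = 0.0585, edgeR). Of 14 alternatives, 4 called it, with adjusted p-values between 9e-04 and 0.408 (edgeR and DESeq2). Leaving out 1 library ended the *Daxx* call for B16F10 vehicle replicate 1 or 3 and 6694c2 vehicle replicate 1 (adjusted p 0.124 to 0.291, edgeR), and the *Pml* call for 6694c2 vehicle replicate 2 or 3 (adjusted p 0.136 and 0.189, edgeR). Without TMM scaling the median of all genes went from log2 -0.006 to -0.186 and *Daxx* stood at 0.0041 (adjusted p = 0.977, edgeR), over a range of adjusted p from 0.00562 to 0.977 in 14 alternatives.

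With IFNβ, *Sp100* (log2 1.42, adjusted p = 4.37e-19, edgeR) and *Daxx* (0.66, adjusted p = 7.54e-13, edgeR) were higher in 6694c2 cells and *Sp110* lower (-1.6, adjusted p = 1.66e-11, edgeR). With *Morc3* this gave 4 of 6 members, against 61.4% of all genes. With IFNγ all 6 differed, against 59.6% of all genes, and 5 of them were lower in 6694c2 cells. *Sp110* was 12.2-fold lower (log2 -3.61, adjusted p = 1.36e-20, edgeR), *Sp140* 4.12-fold (log2 -2.04, adjusted p = 4.56e-11, edgeR), *Daxx* 1.92-fold (log2 -0.94, adjusted p = 7.53e-17, edgeR), *Sp100* 1.83-fold (log2 -0.87, adjusted p = 1.72e-10, edgeR) and *Pml* 1.37-fold (log2 -0.45, adjusted p = 2.35e-06, edgeR).

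The response to each agent, rather than the level reached, was compared between the lines over all 24 libraries. The effect of IFNβ differed for 3 of 6 members, against 12.1% of all genes. It was larger in 6694c2 cells for *Sp100* (log2 1.93, standard error 0.242, adjusted p = 1.73e-07, edgeR) and *Daxx* (0.47, standard error 0.0903, adjusted p = 0.000238, edgeR), and smaller for *Sp110* (-1.25, standard error 0.423, adjusted p = 0.0447, edgeR). The *Sp110* call was not made under 9 of 19 alternatives, each of which left out 1 library (B16F10 vehicle replicate 1 or 3, any B16F10 IFNβ replicate, 6694c2 vehicle replicate 1 or 3, or 6694c2 IFNβ replicate 1 or 3), and its adjusted p ranged from 0.013 to 0.169.

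The effect of IFNγ also differed for 3 of 6 members, against 9.47% of all genes, and was smaller in 6694c2 cells for each. These were *Sp110* (log2 -3.27, standard error 0.464, adjusted p = 1.72e-06, edgeR), *Sp140* (-1.98, standard error 0.472, adjusted p = 0.0036, edgeR) and *Daxx* (-1.13, standard error 0.0925, adjusted p = 3.57e-12, edgeR). Without 6694c2 vehicle replicate 1, which held 19 *Sp140* reads against 4 and 6 in the others of its group, the *Sp140* difference was -1.04 and was not called (adjusted p = 0.327, edgeR). Over 19 alternatives its adjusted p ranged from 0.00048 to 0.327. No such difference was called for *Pml* (-0.25, 95% interval -0.48 to -0.03) or *Sp100* (-0.36, 95% interval -0.89 to 0.16). The effect of STING agonist differed for 0 of 6 members, against 2.12% of all genes (edgeR, with 1 at an unadjusted p under 0.05, *Sp100*, and 0 called by DESeq2).

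Against the interferons, the STING agonist libraries were lower for every member that interferon raised. In B16F10 cells 5 of 6 members were lower than with IFNβ (19.8% of all genes called in either direction) and 5 lower than with IFNγ (20%). In 6694c2 cells 6 were lower than with IFNβ (17.5%) and 5 lower than with IFNγ (12.8%). The differences from IFNβ were as large as log2 -4.1 for *Sp100* in B16F10 and -6.83 in 6694c2 cells (adjusted p = 1.17e-131 and 3.27e-39, edgeR). The sixth call was *Morc3*, 1.16-fold lower than with IFNβ in 6694c2 cells (log2 -0.22, standard error 0.0725, adjusted p = 0.0288, edgeR), which was lost under 7 of 15 alternatives (adjusted p 0.00999 to 0.144), among them leaving out IFNβ replicate 1 or 2 or STING agonist replicate 1 or 2.

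Genes that work with PML bodies but are not in the list mostly kept their levels within 2-fold. Of 18 genes for SUMO and its attachment and removal, 0 changed over 2-fold in any treatment. With IFNβ, 5 were called higher and 5 lower in B16F10 cells (12.7% and 11.2% of all genes) and 1 and 1 in 6694c2 cells (10.4% and 7.86%). With IFNγ the counts were 1 and 6 in B16F10 cells (12% and 10.8%) and 0 and 1 in 6694c2 cells (7.89% and 5.66%). Their median log2 fold changes in these 4 comparisons lay between -0.02 and 0.02. With STING agonist, 1 was called lower in B16F10 cells (1.53% of all genes) and 0 in 6694c2 cells (0.36% in either direction).

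Of 20 partner proteins of the bodies, *Isg20*, an exonuclease that degrades viral RNA, was the only one called over 2-fold in any treatment. *Isg20* rose from 2.67 ± 0.338 CPM with vehicle to 80.5 ± 4.98 with IFNβ and 43.1 ± 2.86 with IFNγ in B16F10 cells (log2 4.91 and 4, adjusted p = 2.11e-163 and 1.29e-129, edgeR) and to 7.69 ± 1.3 with STING agonist (log2 1.51, adjusted p = 1.55e-22, edgeR; SD, n = 3 each). In 6694c2 cells *Isg20* went from 43.3 ± 6.21 to 292 ± 39.7 CPM with IFNβ and 127 ± 8.21 with IFNγ (log2 2.79 and 1.57, adjusted p = 2.75e-27 and 1.99e-18, edgeR; SD, n = 3 each). The share of transcripts typical of 6694c2 cells averaged 0.873% in the B16F10 STING agonist libraries. Its part in the *Isg20* level there was not tested. Among all 20 partners, 3 were called higher and 5 lower with IFNβ in B16F10 cells (12.7% and 11.2% of all genes). With IFNγ the counts were 2 and 4 (12% and 10.8%). In 6694c2 cells they were 4 and 2 with IFNβ (10.4% and 7.86%) and 3 and 0 with IFNγ (7.89% and 5.66%). Median log2 fold changes lay between -0.04 and 0.04. With STING agonist the counts were 1 higher and 1 lower in B16F10 (1.93% and 1.53%) and 0 in 6694c2 cells (0.36% in either direction).

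The families from which the members come were also followed. Of 4 other MORC genes, 3 were tested and none was called over 2-fold. With each interferon in each line 1 was called lower, against 5.66% to 11.2% of all genes. With STING agonist 1 was called lower in B16F10 cells (1.53% of all genes). Of 4 other genes with a SAND domain, 1 was called higher with IFNβ in B16F10 cells (12.7%) and 1 lower with IFNβ in 6694c2 cells (7.86%). Both changes were under 2-fold, and 0 were called in the other comparisons with vehicle. *Irf1*, a transcription factor gene known as a direct target of IFNγ signalling, reached 637 ± 17.3 CPM with IFNγ and 39.3 ± 4.02 with IFNβ in B16F10 cells, and 573 ± 17.3 and 105 ± 4.74 CPM in 6694c2 cells (SD, n = 3 each).

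**Figure D4:**
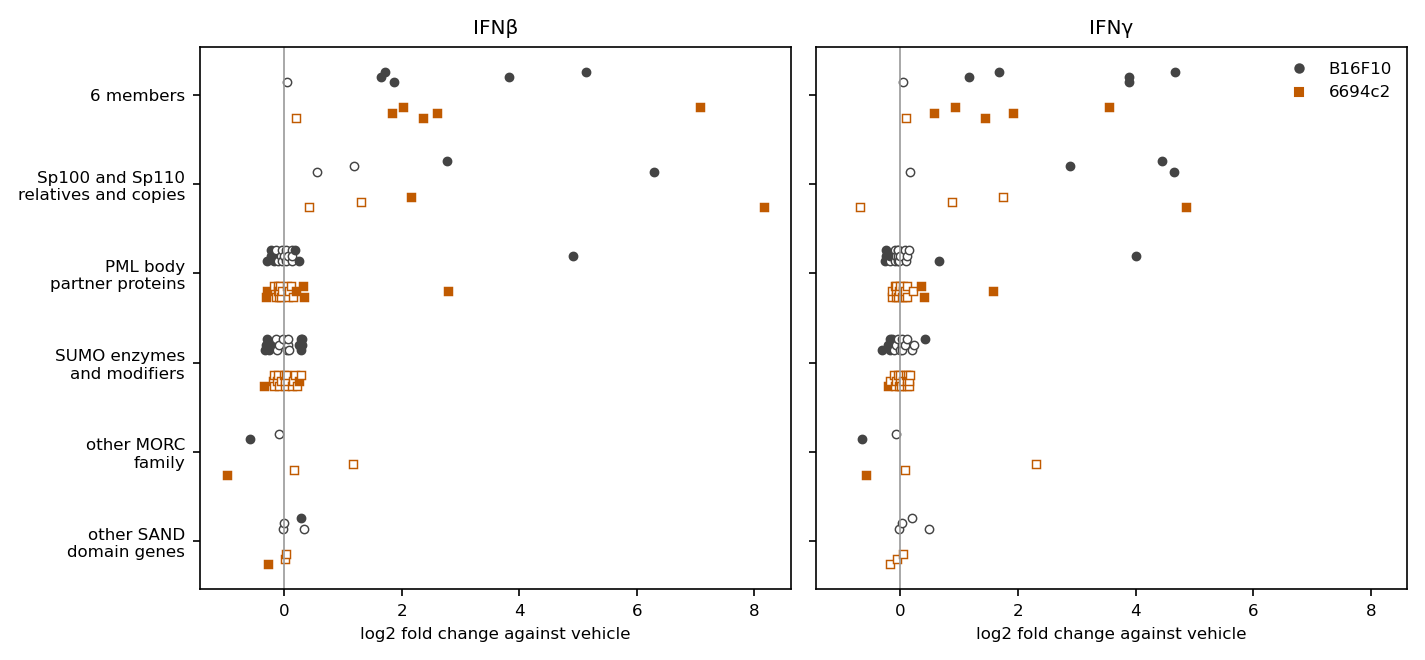
Log2 fold change against vehicle (x axis) of every tested gene of each list (named at the left), with IFNβ (left) and IFNγ (right). Circles are B16F10 and squares 6694c2 cells, filled points were called, and genes with 0 reads in the vehicle libraries of the line are left out. The partner proteins and SUMO genes lie between -0.35 and 0.65 apart from *Isg20*, and the members other than *Morc3* lie at 0.57 or above.

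*Sp100*, *Sp110* and *Sp140* are neighbours on chromosome 1, where mouse also has partial copies of them. *Sp110* and *Sp140* lie head to head, with their annotated starts 1561 bases apart, and *Sp140* ends 4951 bases before *Sp100*. RefSeq gives *Sp110* a further start at position 85603891 of chromosome 1, inside *Sp140*. Of 8 relatives and copies listed, 6 were in the files and tested. With IFNβ 4 of these were called higher in B16F10 (12.7% of all genes) and 4 in 6694c2 cells (10.4%). With IFNγ the counts were 5 (12%) and 2 (7.89%). With genes at 0 in vehicle set to their lower bound, the median log2 fold changes were 3.24 and 2.65 with IFNβ and 3.45 and 1.06 with IFNγ.

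*Gm7592* and *Gm7609*, which have sequence in common with *Sp100*, stood higher with IFNβ than with IFNγ in both lines, a difference that was not tested. *Gm7592* had 0 reads with vehicle and reached 2.65 ± 0.54 CPM with IFNβ and 0.678 ± 0.41 with IFNγ in B16F10 cells (SD, n = 3 each), at least 63.1-fold and 16.1-fold higher against a floor of 3 reads over the 3 vehicle libraries. In 6694c2 cells *Gm7592* reached 3.37 ± 0.156 and 0.137 ± 0.0705 CPM (SD, n = 3 each), at least 57.8-fold and 2.35-fold. *Gm7609* was at 3.68 ± 0.321 CPM with IFNβ and 1.03 ± 0.253 with IFNγ in B16F10 cells and at 6.95 ± 0.856 and 0.72 ± 0.298 CPM in 6694c2 cells (SD, n = 3 each). *A530040E14Rik*, which has sequence in common with *Sp140*, had the other order in B16F10 cells, also not tested, with 1.9 ± 0.313 CPM with IFNγ and 0.506 ± 0.199 with IFNβ (SD, n = 3 each). Of the 75-base stretches of *Gm7592* transcripts, 24.4% also occur in *Sp100*, and 4.36% of those of *Gm7609* do. The part of reads from other genes in the levels of these copies was not tested.

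Reads from these genes may be counted for each other. In the GENCODE transcripts used here, 46.3% of the 75-base stretches of *Sp140* transcripts and 30.4% of those of *Sp110* also occur in another gene, on either strand. The share is 3.12% for *Sp100*, 0.51% for *Pml* and 0% for *Daxx* and *Morc3*. Among the copies it is 64.7% for *Gm7592*, 47.2% for *Gm2666*, 28.5% for *A530040E14Rik*, 27.5% for *A530032D15Rik*, 27.2% for *Gm7609* and 23.4% for *C130026I21Rik*. How the counting treated reads that match several genes, and which annotation it used, is not given in the sources used here. The length of 75 bases was set here and the reads were paired, so the share of reads affected may differ. The levels of *Sp110*, *Sp140* and these copies are therefore uncertain, by an amount that was not tested. *Gm16026*, which covers 18.1% of the stretches of *Sp110*, had 0 to 2 reads in each group. The copy *C130026I21Rik*, which has 9.03% of the stretches of *Sp140* and 2.09% of those of *Sp110*, went from 6 reads over the vehicle libraries to 46 with IFNγ in B16F10 cells (log2 2.88, adjusted p = 0.00118, edgeR), the treatment and line in which both members were highest. *Arhgef12*, which covers 12.2% of those of *Sp140*, was at 140 ± 5.65 CPM with vehicle and 169 ± 16.3 with IFNγ in B16F10 cells (SD, n = 3 each). On the opposite strand, 26.4% of the exon bases of *Sp140* overlap *Gm17017*, which had 0 to 4 reads in each group. *Gm17017* holds 17.5% of the stretches of *Sp140*, which are part of the 46.3% above. Whether the counting used the strand is not given in the sources used here.

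Other genes within 200 kb of each member were also examined. Next to *Pml*, the divergent gene *Stoml1*, 3378 bases away, rose with IFNβ from 12 to 25 CPM in B16F10 cells (log2 1.07, adjusted p = 2.8e-22, edgeR) and from 10.3 to 22.3 CPM in 6694c2 cells (log2 1.15, adjusted p = 1.86e-10, edgeR). *Daxx* lies in the major histocompatibility complex, 310 bases before *Tapbp*, the tapasin gene of peptide loading. *Tapbp* rose with both interferons, by log2 3.14 with IFNβ and 3.99 with IFNγ in B16F10 and by 4.78 and 4.77 in 6694c2 cells (adjusted p = 1.74e-177, 2.29e-211, 3.59e-37 and 9.1e-37, edgeR). Of 33 tested neighbours of *Daxx*, 7 were called higher and 7 lower with IFNβ in B16F10 cells, where 12.7% of all genes were higher and 11.2% lower, and 10 and 0 in 6694c2 cells, where 10.4% and 7.86% were. With IFNγ the counts were 4 and 4 in B16F10 cells (12% and 10.8% of all genes) and 4 and 1 in 6694c2 cells (7.89% and 5.66%). Of 4 tested neighbours of *Morc3*, 1 was called higher and 1 lower with each interferon in B16F10 cells, and in 6694c2 cells 0 and 1 with IFNβ and 0 and 2 with IFNγ.

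The genes most like each member across libraries were taken by the smaller of the Pearson correlations of log2 CPM over the 12 libraries of each line, given as a description since all libraries of a line include the same treatments. *Pml* was most like *Znfx1* (0.995 in B16F10 and 0.987 in 6694c2 cells), *Cmpk2* and *Trim25*, and *Sp100* most like *Cmpk2* (0.995 and 0.998), *Znfx1* and *Eif2ak2*. *Daxx* was most like *Slfn8* (0.996 and 0.994), *Tor1aip2* and *Ifi206*. *Sp110* was most like *Ifi204* (0.974 and 0.976), *Herc6* and *Ifi205*, and *Sp140* most like *Pnpla7* (0.952 and 0.948), *Trim56* and *Tmem140*. For *Morc3* the highest were lower, with *Trim6* (0.685 and 0.847), *Vma21* and *Fhl1*. Among the members themselves, *Pml* and *Sp100* had a correlation of 0.99 in both lines, and *Pml* and *Sp140* one of 0.64 in B16F10 and 0.87 in 6694c2 cells. *Morc3* had correlations of -0.08 to 0 with the other members in B16F10 cells and of 0.77 to 0.88 in 6694c2 cells, where its levels spanned 46.7 to 57.5 CPM.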

How the data were processed

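Bulk RNA was sequenced in 24 libraries, 3 for each of 8 groups. The authors trimmed paired reads with cutadapt, aligned them with STAR and counted them per gene with Rsubread, and the deposited values are raw counts of whole reads, with mm10 coordinates and a length for each gene. The submitters' processing notes name mm10. Strand setting and treatment of multi-mapping reads are not given in the sources used here. No file of the 6 single-cell samples was used here.

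Groups came from the titles and treatment labels. The tests covered the 21138 of 49315 genes whose reads summed to 10 or more across libraries. edgeR 4.0.16 (R 4.3.3) fitted quasi-likelihood models with TMM scaling, over the 12 libraries of a line for comparisons within it and over all 24 for comparisons between lines. P-values were two-sided and adjusted by Benjamini-Hochberg over all genes tested, with calls under 0.05. With 3 libraries against 3, an exact permutation test cannot go below p = 0.1, so none was used. CPM and RPKM were computed from the deposited counts with TMM-scaled totals. Standard errors are the log2 fold change over the root of its F statistic. Alternatives were RLE size factors, total reads, other low-count minimums, a robust fit, a replicate block, other sets of libraries in the fit, DESeq2 1.42.0, and leaving out each library in turn. Correlations used log2(CPM + 0.5).

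The members, the other gene lists and the rules for naming genes were chosen with earlier results of these data known. From each list, up to 3 genes called over 2-fold against vehicle and largest in size could be named, and any relative, with *Irf1* as a check of the interferon signal. An allele of 6694c2 cells and a list of signal genes are not reported here. *Arhgef12*, *Gm16026* and *Gm17017* were named for their overlap with members, and *Morc4*, *Lyz2*, *Lat* and the B cell markers after their values were seen. Same-numbered libraries of different treatments were not paired: over 18 such pairs per line, correlations of deviations from the group means ran from -0.15 to 0.16 in B16F10 and from -0.22 to 0.2 in 6694c2 cells, with 3 over 0.1 in each. Coordinates are of GRCm38, which mm10 is. Sequence stretches in common were counted on both strands in the transcripts of GENCODE for that build, and promoters are from RefSeq.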

Additional observations from a re-analysis of the deposited data

Results flagged for a closer look

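The responses of 4 of the genes differed between the lines when the difference itself was tested (edgeR's quasi-likelihood test over 24 libraries, Benjamini-Hochberg). The IFNβ effect in 6694c2 less that in B16F10 cells was log2 1.93 for *Sp100* (adjusted p = 1.73e-07), 0.47 for *Daxx* (adjusted p = 0.000238) and -1.25 for *Sp110* (adjusted p = 0.0447). For IFNγ it was -3.27 for *Sp110* (adjusted p = 1.72e-06), -1.98 for *Sp140* (adjusted p = 0.0036) and -1.13 for *Daxx* (adjusted p = 3.57e-12). Without 6694c2 vehicle replicate 1 the *Sp140* difference was -1.04 and not called (adjusted p = 0.327), which leaves 3 genes, and the *Sp110* difference for IFNβ was not called under 9 of 19 alternatives (adjusted p 0.013 to 0.169). *Daxx* differed in opposite directions for the interferons, with a larger rise in 6694c2 cells with IFNβ and a smaller one with IFNγ.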

How the results depend on the processing

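Of the 114 member differences, 10 had an alternative that changed the call, and the counts of members called stayed within 1.5 times in 298 of 298 alternatives. That limit is wide for so few members, since single calls can be lost or gained within it, and a lost and a gained call cancel. Of 1171 values for called differences under alternatives, 1143 stayed called in the same direction, 28 were no longer called and 0 changed direction. The direction changed in 39 of 1788 values, each uncalled before and after. For *Morc3* with IFNβ against IFNγ in B16F10 cells these were -0.012 with RLE size factors and with DESeq2, -0.014 with the filterByExpr minimum, -0.0015 without a low-count minimum and -0.009 with 24 libraries in the fit, against 0.0019. For *Sp140* with STING agonist against vehicle in 6694c2 cells they were -0.0062 with RLE size factors, -0.0029 with total reads, -0.0046 with filterByExpr, -0.00027 with 24 libraries, -0.0016 with 2 groups only and -0.0077 with DESeq2. *Daxx* in that comparison was 0.0037 without a low-count minimum and 0.00012 with the replicate block, which kept the call and direction of 113 of 114 differences, and *Sp140* between the lines with IFNβ was -0.022 with total reads. Leaving out 1 library at a time gave, with STING agonist against vehicle in 6694c2 cells, -0.05 to 0.067 for *Daxx*, -0.05 to 0.0014 for *Morc3*, -0.42 to 0.21 for *Sp110* and -0.39 to 0.94 for *Sp140*. It gave -0.069 to 0.069 for *Morc3* between the interferons and -0.013 to 0.13 with IFNβ in B16F10 cells. Between the lines it gave -0.16 to 0.03 for *Pml* with IFNβ and -1 to 0.33 for *Sp140* with vehicle. For the difference in effect it gave -0.12 to 6.3e-05 for *Daxx* with STING agonist, -0.0082 to 0.11 for *Morc3* with IFNγ, -0.11 to 1.23 for *Sp140* with IFNβ and -1.01 to 0.33 for *Sp140* with STING agonist. Total reads brought the median of all genes between the lines from log2 -0.006 to -0.186 with vehicle, from -0.038 to -0.269 with IFNβ and from -0.026 to -0.195 with IFNγ, and for the IFNβ difference in effect from -0.036 to -0.101, and called *Pml* lower in 6694c2 cells with IFNβ (-0.29, adjusted p = 0.00123, edgeR, over a range of 0.00123 to 0.997). The 76 genes called with STING agonist in 6694c2 cells became 155 without a low-count minimum, 126 with the replicate block, 132 with 2 groups only, 105 with DESeq2, 49 with filterByExpr and 42 to 105 with 1 library left out. *Sp110* and *Sp140* rested on 4 to 24 reads in a vehicle library, and the parts of depth and of the spread between libraries in their intervals were not tested.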

Other observations

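Of the other MORC family genes, *Morc4*, chosen after its values were seen, was called lower with both interferons in both lines, in contrast to the values of *Morc3*. In B16F10 cells *Morc4* went from 21 ± 1.88 CPM with vehicle to 14 ± 1.03 with IFNβ and 13.3 ± 0.681 with IFNγ (log2 fold change -0.58 and -0.66, adjusted p = 1.11e-07 and 1.4e-09, edgeR). In 6694c2 cells it went from 21.5 ± 1.07 CPM to 10.7 ± 1.82 and 14.2 ± 1.09 (log2 fold change -0.98 and -0.59, adjusted p = 1.5e-09 and 6.76e-05, edgeR). Errors are SDs over 3 libraries. With STING agonist *Morc4* was not called in either line (log2 fold change -0.11 and -0.17). The difference between *Morc4* and *Morc3* was not tested.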
